A study of Drosophila melanogaster with 4 samples.

Results

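The genes described here encode the machinery that starts transcription by RNA polymerase II (Pol II) in Drosophila melanogaster: the polymerase subunits, the general transcription factors, the TFIID complex and the Mediator complex. They were chosen by name alone, as genes whose FlyBase symbol starts with MED, Taf or TAF and a digit, TfII, Polr2, Rpb or RpII, together with CycC, Cdk8, kto, skd and Tbp. Of 69 symbols that fit, 66 had a gene ID in the files, and 63 of these averaged 20 counts or more per library, out of 7883 genes of the series that reached this minimum. Such genes are called measured. Earlier results of these data were known when the set was proposed, but the rule itself uses no measured value other than this minimum. The values nearest to it were a mean of 24.75 counts for Taf12L inside and 8 counts for MED9 outside.

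S2 cells, a line of embryonic origin, were grown at 25 °C and harvested after treatment with radicicol, an inhibitor of the chaperone Hsp90, or with the solvent DMSO. There was 1 polyadenylated RNA library for each of 4 conditions: DMSO (labelled 0 min) and 40 µM radicicol for 15, 30 and 60 min. The study followed how transcripts respond over time to inhibition of Hsp90. Since each condition is a single library, replicate error is unknown, and no DMSO library was matched to the later times. In bulk RNA, fewer cells of a kind and less RNA per cell cannot be told apart.

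Pol II is built of a large catalytic core and a set of small subunits, some of which also serve Pol I and Pol III. It is brought to promoters by general factors, of which TFIID, made of the TATA-binding protein Tbp and Tbp-associated factors (TAFs), recognises the core promoter. Mediator joins activators bound at enhancers to the polymerase through its tail, middle and head modules on the MED14 scaffold, and a separable kinase module (Cdk8, CycC, kto and skd) binds it reversibly.

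Gene counts summed to 28614983, 30859475 and 31028233 at 15, 30 and 60 min of radicicol and to 19153476 in DMSO. Reads that were not aligned made up 17.8 to 21.5% of the radicicol libraries and 44.1% of the DMSO library. The 8 haemocyte markers looked for, which mark the blood cell-like character of S2 cells, were all present, with a summed level of 7269 to 12466 CPM (counts per 1e6 of the scaled library). Markers of fat body and of ovarian soma each summed to at most 0.165 CPM and the germline marker bam to at most 1.28 CPM. Muscle markers summed to 34.4 CPM at 60 min and 20.2 CPM in DMSO, and neuron markers to 16.4 CPM at 60 min and 1.71 CPM in DMSO, mostly elav. The part of these shifts in the results below was not tested.

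The machinery genes split at 60 min of radicicol. Genes with long transcripts, among them Polr2A, Taf1, Taf4, MED14, MED26 and skd, were more than 2-fold higher than in DMSO, and many genes of small subunits were more than 2-fold lower. A gene was called higher or lower when its log2 fold reached 1 in size and its 95% Clopper-Pearson counting interval, in brackets below, did not hold 0. By this rule 6 of the 63 genes were higher (9.52%, against 19.7% of all measured genes) and 13 were lower (20.6%, against 12.6% of all measured genes). The median log2 fold of the 63 genes was -0.59, while that of all measured genes was -0.018.

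A straight line in minutes through the 4 libraries was tested with edgeR's quasi-likelihood test, with p adjusted by Benjamini-Hochberg over all measured genes. Only genes that passed it at 0.05 are said to have risen or fallen, with slopes per 60 min on the log2 scale. Of the 63 genes 12 rose (19.0%, against 34.1% of all measured genes) and 39 fell (61.9%, against 33.8%). Leaving out the 60 min library left 2 that rose (11.5% of all measured genes did so) and 10 that fell (7.41%). Leaving out the DMSO library left 9 that rose (28.8% of all measured genes did so) and 30 that fell (25.0%). These p-values reflect how far 4 libraries lie from a line, and hold nothing about variation among cultures.

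**Figure D1:**
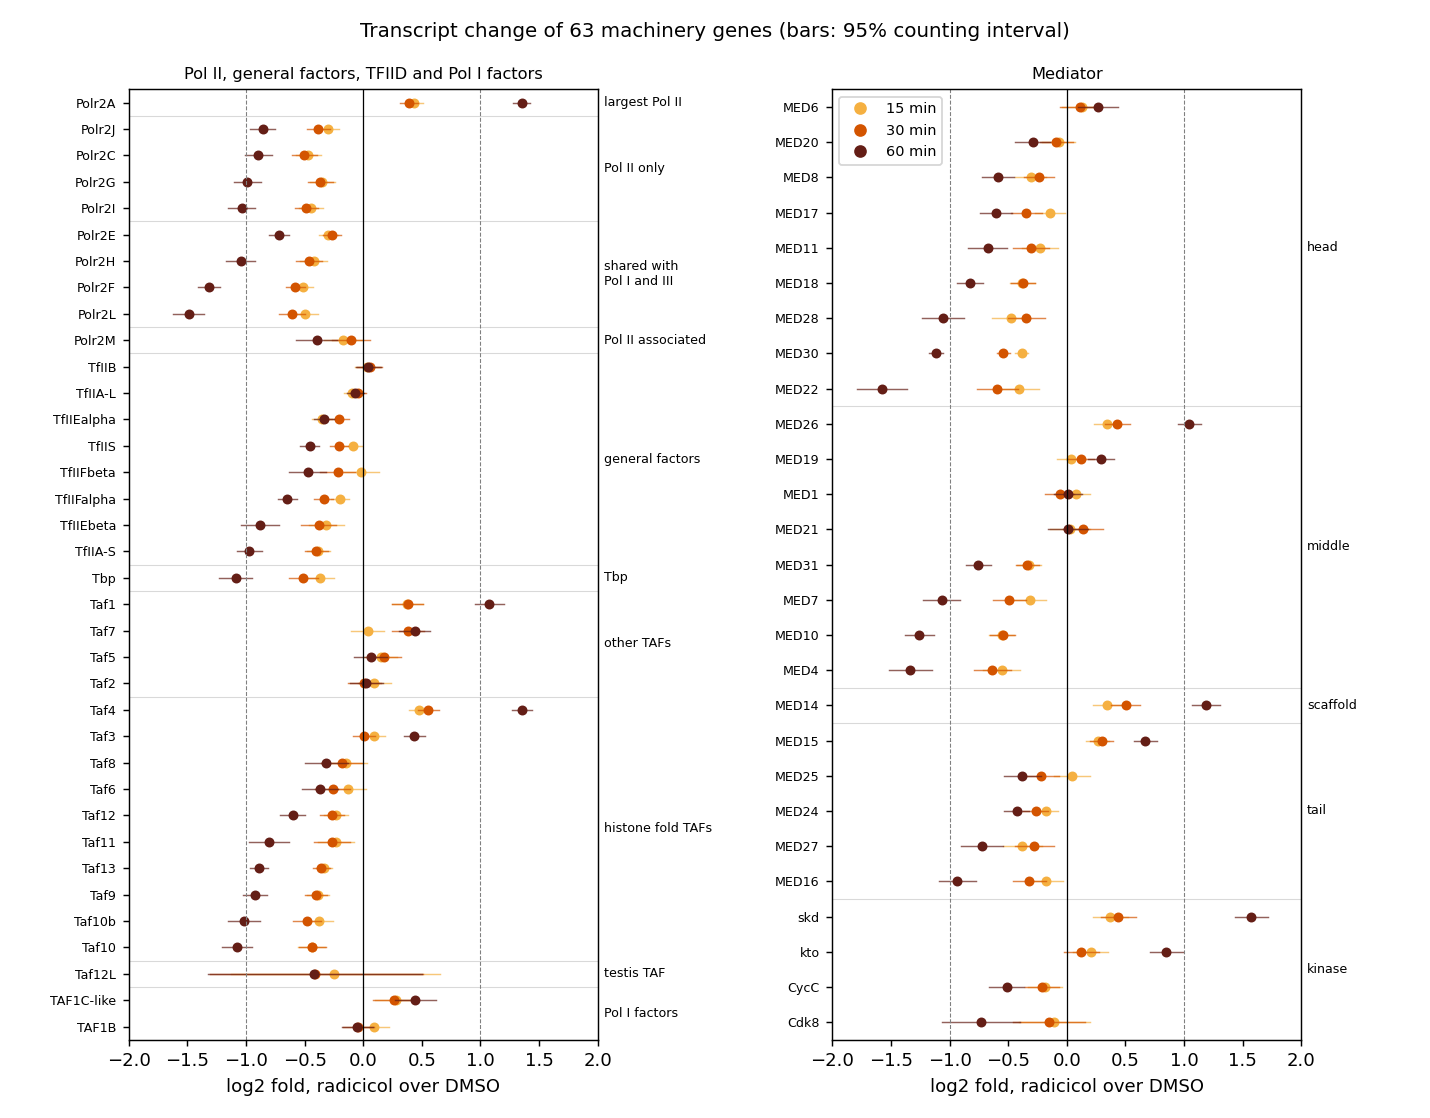
Log2 fold of each of the 63 genes in radicicol over DMSO (x axis) at 15, 30 and 60 min (colours), grouped by complex and module (y axis), with bars for the 95% counting interval of 1 library pair and dashed lines at 2-fold. The 60 min points of Polr2A, Taf1, Taf4, MED14, MED26 and skd lie right of the upper line, and those of 13 genes lie left of the lower line.

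The direction of these genes followed the length of their exons. Over the 63 genes, log2 fold at 60 min against DMSO and exon length had a Spearman correlation of 0.80, and over the 7219 measured genes with a known length it was 0.69. The points share the same libraries, so this is a description. The relation was as strong in the step from 30 to 60 min, which does not use the DMSO library, with 0.80 over the 63 genes and 0.70 over all genes.

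The measured genes with a length were cut into 4 classes of near equal number by exon length. The shortest class, up to 1281 bases, held 33 of the machinery genes, with a median log2 fold at 60 min of -0.89, against -0.82 for all genes of that class. In it 30 of the 33 machinery genes fell (90.9%), as did 71.2% of all its genes. The longest class, from 3344 bases, held 11 machinery genes with a median of 1.05, against 1.02 for all its genes, and 8 of the 11 rose (72.7%), as did 76.4% of all its genes. In the second class, up to 2036 bases, the 9 machinery genes and all genes both had a median of -0.33, and 44.4% of the machinery genes and 44.2% of all genes fell. The third class, up to 3343 bases, went another way: its 10 machinery genes had a median of -0.15, against 0.19 for all its genes, and 5 of the 10 fell (50%), against 18.9% of all its genes. The classes are small, and the differences were not tested.

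**Figure D2:**
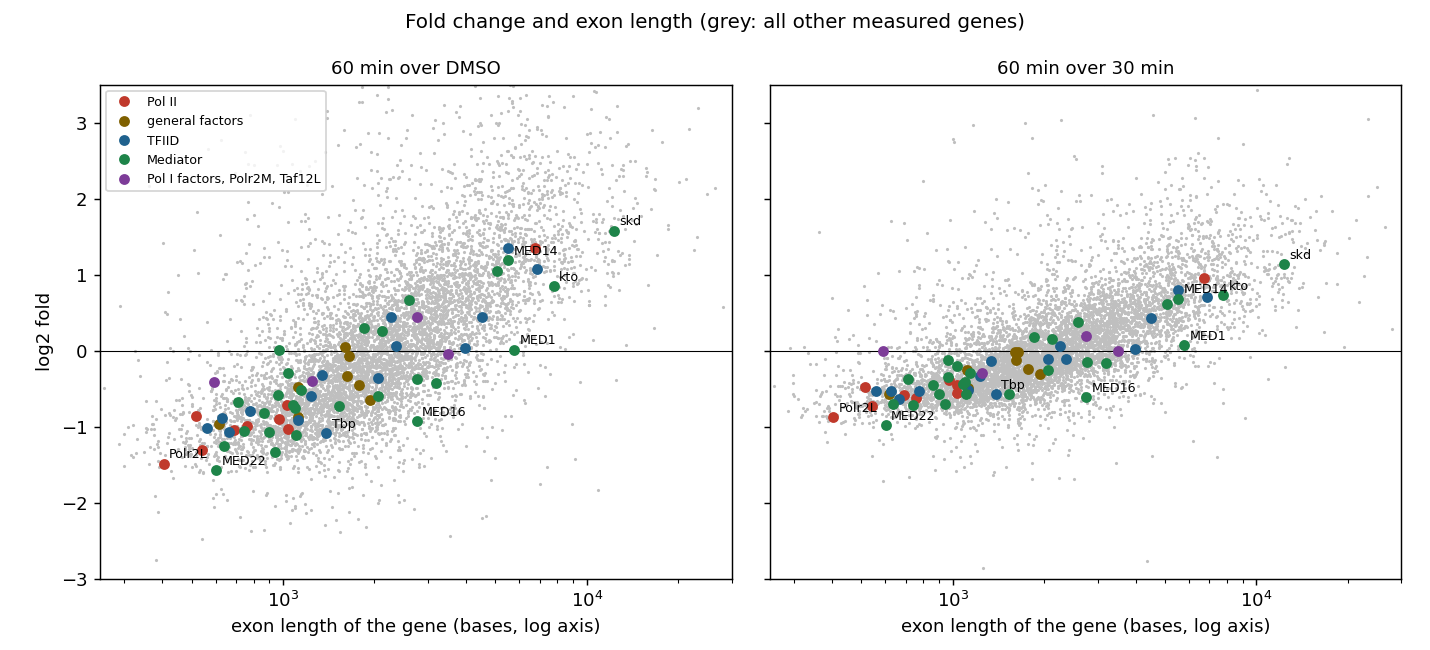
Log2 fold (y axis) against exon length in bases (x axis, log scale) for 60 min over DMSO (left) and 60 min over 30 min (right), with machinery genes in colour by complex and all other measured genes in grey. The coloured points run from short genes such as Polr2L and MED22 at the lower left to skd at the upper right within the grey cloud, with MED1 and MED16 below its centre, and 770 (left) and 693 (right) measured genes without a length, without a finite fold or outside the axes are not drawn.

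Among the Pol II subunits, the gene of the largest subunit moved opposite to all the small ones that could be measured. Polr2A (FBgn0003277), whose product forms the active centre and carries the C-terminal repeat domain, had 106 CPM in DMSO and 143, 139 and 271 CPM at 15, 30 and 60 min. Its level was nearly level between 15 and 30 min and highest at 60 min. At 60 min it was 2.55-fold higher than in DMSO (log2 1.35, 1.28 to 1.42), and it rose with a slope of 1.29 (SE 0.17, adjusted p = 0.00121).

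All 8 other measured Pol II subunits fell, as did 33.8% of all measured genes and 71.2% of the shortest length class. With the relation to exon length removed, as described below, 3 of the 8 fell. Their median log2 fold at 60 min was then -0.24. Polr2L (FBgn0039218), the small Rpb10 subunit shared by the 3 polymerases, had 68.8 CPM in DMSO and 48.7, 45.1 and 24.5 CPM at 15, 30 and 60 min. It was 2.81-fold lower at 60 min (log2 -1.49, -1.62 to -1.36), with a slope of -1.43 (SE 0.15, adjusted p = 0.000699). Polr2F, the shared Rpb6 subunit, had 124 CPM in DMSO and 86.9, 83.0 and 49.9 CPM in the radicicol libraries, a log2 fold of -1.31 (-1.41 to -1.22) at 60 min. Both were lower in every radicicol library than in DMSO, and lowest at 60 min.

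Polr2H, the shared Rpb8, and Polr2I, the Rpb9 subunit that helps in start site choice and proofreading, were also past the 2-fold rule, at -1.05 (-1.17 to -0.92) and -1.04 (-1.15 to -0.93). Short of it were Polr2G (Rpb7, part of the stalk) at -0.99, Polr2C (Rpb3) at -0.90, Polr2J (Rpb11) at -0.86 and the shared Polr2E (Rpb5) at -0.72. Rpb3 and Rpb11 pair in the assembly platform of the enzyme. Their genes had 38.5 and 44.9 CPM at 60 min, against 71.6 and 81.4 CPM in DMSO. Of Polr2L and Polr2G, 15.3% and 15.9% of the exon length overlaps a neighbouring gene, and the sources used here do not give the strand setting of the counting.

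Per kilobase of exon, the level of Polr2A came closer to that of its partners over the hour. It was 15.8, 21.3, 20.7 and 40.2 CPM per kb at 0, 15, 30 and 60 min, while the median of the other 8 subunits was 107, 85.6, 86.2 and 53.8 CPM per kb. Polr2A was the lowest of the 9 in DMSO and at 15 and 30 min, and at 60 min Polr2C (39.7) and Polr2I (37.9) were lower, with counting intervals that overlap that of Polr2A. The highest of the 9 levels was 2.44 times the lowest at 60 min and 14.5 times the lowest in DMSO. Polr2A has 6736 bases of exon, and the other 8 have a median of 725.5. Long genes had higher folds than short ones over all measured genes too. With that relation removed, the log2 fold at 60 min was -0.039 for Polr2A and a median of -0.24 for the other 8. The subunit genes Polr2B, Polr2D and Polr2K matched no ID and are not analysed here, so the level of the second catalytic subunit is unknown.

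**Figure D3:**
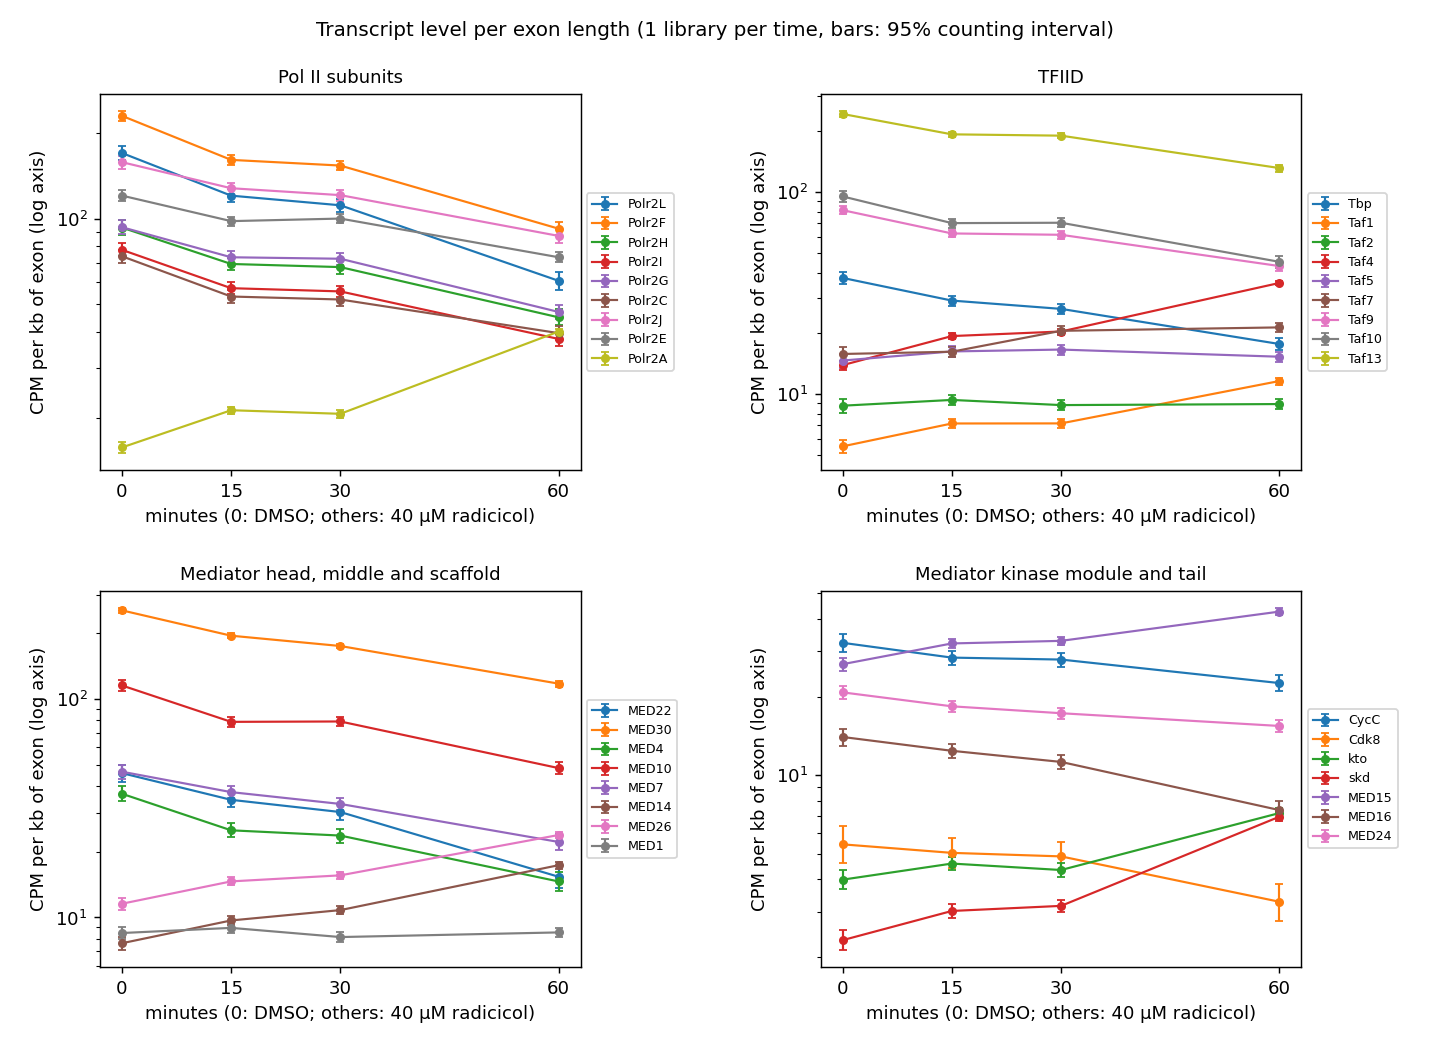
Level in CPM per kb of exon (y axis, log scale) of 33 machinery genes over minutes (x axis, 0 is DMSO) in 4 panels, with bars for the 95% counting interval of each library. Among the Pol II subunits the Polr2A line climbs to 40.2 CPM per kb at 60 min, into the range of the falling small subunits, and in the kinase module kto and skd pass Cdk8.

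Polr2M, the gene of Gdown1, a protein that binds Pol II and makes it depend on Mediator, had 498 counts in DMSO and fell with a slope of -0.36 (SE 0.13, adjusted p = 0.0477). Its log2 fold at 60 min was -0.40 (-0.57 to -0.23). With the length relation removed the fold was 0.075 (-0.096 to 0.248). The slope was then 0.082 and did not pass the test. Gdown1 is not a subunit of the core enzyme, although the symbol places it among them.

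None of the general factors was past the 2-fold rule. Of the 8 measured, 5 fell (62.5%, against 33.8% of all measured genes) and none rose (against 34.1%). Their median log2 fold at 60 min was -0.47. TfIIA-S, the small subunit of TFIIA, which steadies Tbp on DNA, had 84.8 CPM in DMSO and 64.9, 64.2 and 43.2 CPM at 15, 30 and 60 min, with a slope of -0.91 (SE 0.14, adjusted p = 0.00189). The large subunit TfIIA-L had 145, 136, 141 and 139 CPM in the same order and did not pass the test (adjusted p = 0.722). The log2 folds at 60 min of these 2 genes of 1 factor were -0.97 (-1.08 to -0.87) for TfIIA-S and -0.066 (-0.14 to 0.00) for TfIIA-L, and their difference was not tested. Their exon lengths are 617 and 1645 bases. With the length relation removed the folds were -0.098 (-0.21 to 0.01) and 0.15 (0.08 to 0.22), and neither gene passed the slope test.

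TfIIB, whose product bridges Tbp and the polymerase, stayed between 62.1 and 64.5 CPM in the 4 libraries (slope 0.04, SE 0.11, adjusted p = 0.778). Of its exon length 26.8% overlaps another gene. TfIIEbeta fell to 18.9 CPM at 60 min, against 34.9 CPM in DMSO, while TfIIEalpha, its partner in the factor that recruits TFIIH, had 83.9 CPM at 60 min and 106 CPM in DMSO and did not pass the test (adjusted p = 0.183). Both TFIIF genes fell: TfIIFalpha had a log2 fold of -0.65 (-0.73 to -0.56) and TfIIFbeta one of -0.47 (-0.63 to -0.32) at 60 min. TfIIS, whose product rescues stalled polymerase, had -0.46 (-0.54 to -0.38) and fell.

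In TFIID 4 of 15 genes rose (26.7%, against 34.1% of all measured genes) and 8 fell (53.3%, against 33.8%). Taf4 (FBgn0010280), a scaffold TAF with a histone fold, had 76.7 CPM in DMSO and 107, 113 and 196 CPM at 15, 30 and 60 min. Its log2 fold at 60 min was 1.35 (1.27 to 1.44), and it rose with a slope of 1.29 (SE 0.13, adjusted p = 0.000662). Taf1, the largest TAF, which reads acetylated histones, had 37.9, 49.1, 49.2 and 79.8 CPM over the same libraries and was 2.11-fold higher at 60 min than in DMSO (log2 1.08, 0.95 to 1.2). Both were above DMSO in all 3 radicicol libraries and highest at 60 min. Taf3 and Taf7 rose as well, to 105 and 48.4 CPM at 60 min, against 77.7 and 35.7 CPM in DMSO, without passing 2-fold.

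Tbp (FBgn0003687) fell. It had 52.2 CPM in DMSO and 40.3, 36.6 and 24.5 CPM at 15, 30 and 60 min, each radicicol library lower than the one before it in time. At 60 min it was 2.13-fold lower than in DMSO (log2 -1.09, -1.23 to -0.95), with a slope of -1.05 (SE 0.12, adjusted p = 0.00086). Taf10 and its paralogue Taf10b, small histone fold TAFs, were the other TFIID genes past the rule, at -1.08 (-1.2 to -0.95) and -1.02 (-1.15 to -0.88).

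The other histone fold TAFs that fell were Taf9 (log2 fold -0.92 at 60 min), Taf13 (-0.89), Taf11 (-0.80), Taf12 (-0.60) and Taf6 (-0.37). Taf9 and Taf6 form a histone-like pair, as do Taf11 and Taf13, and Taf4 and Taf12. In the last pair the partners moved in opposite directions: Taf12 had 49.0 CPM at 60 min and 74.5 CPM in DMSO, and Taf4 rose. With the length relation removed Taf12 did not fall and Taf4 did not rise. Taf2 and Taf5 did not pass the test, with log2 folds of 0.03 (-0.12 to 0.17) and 0.06 (-0.08 to 0.21), nor did Taf8 with -0.32 (-0.50 to -0.13).

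In Mediator 6 of 27 measured genes rose and 17 fell. The head module, which contacts the polymerase, held 7 genes that fell and none that rose among 9. These genes are mostly short, with a median exon length of 963 bases. The share that fell was 77.8%, against 71.2% of all genes in the shortest length class. MED22 (FBgn0040339), a small head subunit, had the lowest fold of all 63 genes: 27.6 CPM in DMSO and 20.8, 18.3 and 9.24 CPM at 15, 30 and 60 min, or 281 counts at 60 min and 501 in DMSO. It was 2.98-fold lower at 60 min (log2 -1.58, -1.79 to -1.36), with a slope of -1.54 (SE 0.17, adjusted p = 0.000764). MED30, the head gene with the highest level, had 281 CPM in DMSO and 215, 193 and 130 CPM in the radicicol libraries, and MED28 had a log2 fold of -1.06 (-1.24 to -0.88). MED17, the central head subunit, fell to 29.7 CPM at 60 min, against 45.1 CPM in DMSO.

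The head genes MED8, MED11 and MED18 fell with log2 folds of -0.59, -0.67 and -0.83 at 60 min. MED20 and MED6 did not pass the test, at -0.29 (-0.44 to -0.14) and 0.26 (0.09 to 0.43). MED6, at the junction of head and middle, was the only head gene with a fold above 0 at 60 min.

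The middle module was divided. MED4, MED10 and MED7, small subunits of the middle, had 13.7, 30.8 and 19.97 CPM at 60 min, against 34.7, 73.6 and 41.9 CPM in DMSO. Their log2 folds were -1.33 (-1.52 to -1.15), -1.26 (-1.38 to -1.13) and -1.07 (-1.22 to -0.91), and they fell, as did MED31 at -0.75. MED26, which recruits elongation factors in human cells, had 58.6 CPM in DMSO and 74.2, 79.1 and 121 CPM at 15, 30 and 60 min. It was 2.06-fold higher at 60 min (log2 1.05, 0.95 to 1.14) and rose. MED19 rose to 66.4 CPM at 60 min, against 54.1 CPM in DMSO (slope 0.31, SE 0.11, adjusted p = 0.0422). MED1, a contact for nuclear receptors, and MED21 did not pass the test and had log2 folds of 0.01 (-0.11 to 0.13) and 0.01 (-0.16 to 0.18). Of MED21, 26.6% of the exon length overlaps Set1.

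MED14 (FBgn0035145), the scaffold that links the modules, had 42.0, 53.4, 59.6 and 95.7 CPM from DMSO to 60 min, each library above the one before. It was 2.28-fold higher at 60 min (log2 1.19, 1.07 to 1.30) and rose with a slope of 1.16 (SE 0.12, adjusted p = 0.000628). In the tail, where activators bind, 4 of 5 measured genes fell (80%, against 33.8% of all measured genes). They were MED16 (-0.93, -1.09 to -0.77), MED27 (-0.72, -0.90 to -0.55), MED24 (-0.43, -0.54 to -0.32), of whose exon length 22.6% overlaps another gene, and MED25 (-0.38, -0.54 to -0.22). The exception was MED15, a target of several activators, which rose to 110 CPM at 60 min, against 69.3 CPM in DMSO.

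The 4 genes of the kinase module separated by transcript length. Skd (FBgn0003415), the fly MED13, which ties the module to the core, had the highest fold of all 63 genes: 28.7 CPM in DMSO and 37.1, 38.8 and 85.4 CPM at 15, 30 and 60 min. It was 2.98-fold higher at 60 min (log2 1.57, 1.44 to 1.71) and rose with a slope of 1.56 (SE 0.18, adjusted p = 0.000927). Most of this difference appeared after 30 min. Kto, the fly MED12, which activates the kinase, had 30.9, 35.6, 33.7 and 55.7 CPM and rose (slope 0.83, SE 0.17, adjusted p = 0.00536) without passing 2-fold.

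The kinase and its cyclin went the other way. Cdk8 had 151, 233, 234 and 152 counts, or 8.31, 7.71, 7.47 and 5.0 CPM, from DMSO to 60 min, and fell (slope -0.73, SE 0.23, adjusted p = 0.0274). Its log2 fold of -0.73 has a wide counting interval of -1.07 to -0.40. CycC had 36.9, 32.3, 31.8 and 25.8 CPM and fell (slope -0.49, SE 0.11, adjusted p = 0.00988). Per kb of exon, skd stood at 2.12 times the level of Cdk8 at 60 min and at 0.429 times its level in DMSO, and kto at 2.19 times at 60 min and 0.732 times in DMSO.

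At 15 and 30 min the same genes had moved little. None of the 63 was past the 2-fold rule at either time, where 1.40% of all measured genes were higher and 1.23% lower at 15 min, and 3.36% and 1.32% at 30 min. The counting interval at 15 min lay below 0 for 37 genes (31.5% of all measured genes) and above 0 for 10 (31.4%). The median log2 fold was -0.19 at 15 min and -0.26 at 30 min, against -0.59 at 60 min. For the 8 Pol II subunits other than Polr2A it was -0.44, -0.47 and -1.01 at 15, 30 and 60 min. All 8 had a counting interval below 0 at 15 min. With total counts as library size, which put the median of all genes at 15 min at 0.15 (-0.0041 otherwise), the 15 min median of the machinery genes was -0.034.

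The step from 30 to 60 min compares radicicol libraries with each other. Its median log2 fold was -0.30, and the counting interval lay below 0 for 40 of the 63 genes (39.6% of all measured genes) and above 0 for 12 (39.2%). The median was -0.14 in TFIID, -0.25 in the general factors and -0.57 in the Pol II subunits other than Polr2A, while at 30 min over DMSO these groups had -0.26, -0.21 and -0.47. Skd was higher by the 2-fold rule (1.14), the only machinery gene past it in this step, where 9.81% of all measured genes were higher and 1.03% lower. Polr2A had a log2 fold of 0.96 in this step and Taf4 one of 0.80, while MED22 had -0.98 and Polr2L -0.88. Taf7, which rose, had a log2 fold of 0.38 at 30 min and 0.44 at 60 min over DMSO. Set against the 15 min library, 1 of the 63 genes was higher at 60 min (13% of all measured genes) and 1 was lower (2.9%).

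Removing the relation of fold to exon length, fitted over all measured genes with a loess curve, took away much of the split. None of the 63 genes was then higher at 60 min (8.01% of all genes with a length were), and 2 were lower (5.89%). The median log2 fold at 60 min was -0.19, against -0.11 for all genes. In the slope test 5 genes rose (22.4% of all genes) and 25 fell (33.9%), and of these 2 had risen and 18 had fallen without the removal. In this fit 3 of the 8 Pol II subunits other than Polr2A fell, against 8 without the removal. Of 10 histone fold TAFs and 9 Mediator head genes 3 each fell, against 7 each without the removal. The intervals of Polr2A (-0.11 to 0.03), MED14 (-0.11 to 0.12) and MED26 (-0.15 to 0.05) then held 0.

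Other genes kept a fold below 0. Tbp (-0.71, -0.85 to -0.57), MED22 (-0.69, -0.90 to -0.47), MED4 (-0.68, -0.86 to -0.50), MED30 (-0.55, -0.61 to -0.49) and TfIIFalpha (-0.59, -0.68 to -0.51) fell with the relation removed as well as without it. MED16 was at -1.28 (-1.44 to -1.13) and MED1 at -1.22 (-1.34 to -1.10), the 2 genes lower by the 2-fold rule. MED1, Taf2 (-0.78), kto (-0.69), TAF1B (-0.70), Taf3 (-0.52), skd (-0.42) and Taf1 (-0.34) are long genes that fell in this fit and did not fall before it. Those that rose in it were MED21 (0.65), MED19 (0.40), MED15 (0.39), MED20 (0.31) and TfIIB (0.28), and MED15 and MED19 rose in both fits. MED16, MED1, Taf2, MED21, Taf3, TfIIFalpha, TfIIB, MED20 and TAF1B are named here after their values were seen.

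**Figure D4:**
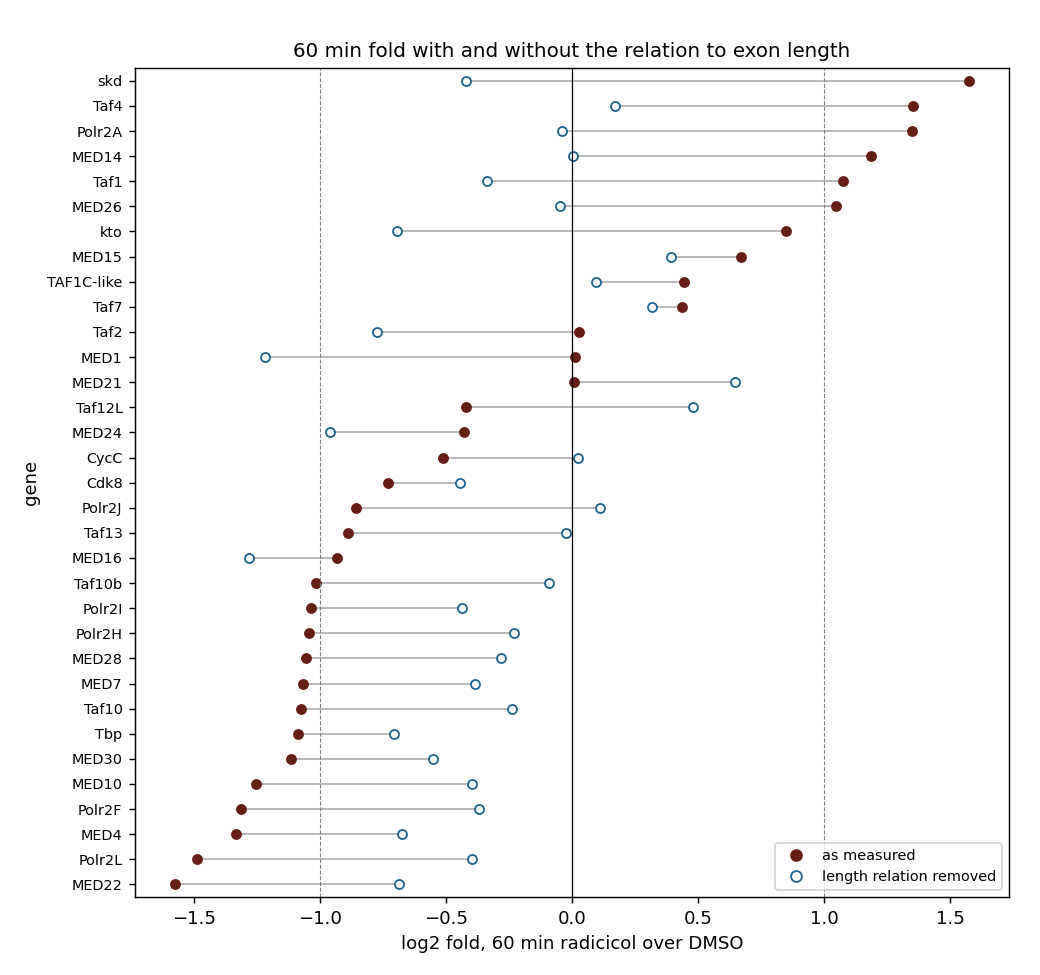
Log2 fold at 60 min over DMSO (x axis) of 33 machinery genes (y axis), as measured (filled) and with the relation to exon length removed (open), with dashed lines at 2-fold. The open points of Polr2A, MED14 and MED26 lie near 0, those of MED16 and MED1 lie left of the lower line, and Tbp, MED4 and MED22 stay below 0 in both.

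Levels per kb of exon spanned a wide range. At 60 min Taf13 with 132 and MED30 with 118 CPM per kb were highest. The highest in DMSO were MED30 with 254, Taf13 with 244, Polr2F with 229, Polr2L with 170 and Polr2J with 158 CPM per kb, and the median of the 63 was 35.0. The lowest were Taf12L with 1.86, skd with 2.33, kto with 3.98, Cdk8 with 5.43 and Taf1 with 5.50 CPM per kb. The kinase module genes other than CycC (32.3) thus lay at the bottom of the Mediator range. Within Mediator the highest level was 35.9 times the lowest at 60 min and 109 times in DMSO, and within TFIID it was 14.8 times at 60 min and 44.3 times in DMSO. Levels per kb rest on exon lengths of a later annotation, and their changes between libraries restate the folds of the genes.

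Some symbols that fit by their letters lie outside the Pol II machinery, and some genes were close to the count minimum or below it. TAF1B and TAF1C-like resemble factors of Pol I initiation. TAF1B had 40.8 CPM at 60 min and 42.3 CPM in DMSO and did not pass the test, and TAF1C-like rose to 29.0 CPM at 60 min, against 21.3 CPM in DMSO (adjusted p = 0.0416). Taf12L, the gene of a testis paralogue of Taf12, had 20, 28, 26 and 25 counts from DMSO to 60 min, close to the count minimum. MED9, all of whose exon length overlaps another gene, had 7, 5, 5 and 15 counts. MED23 and TfIIA-S-2 had 0 counts in every library, for which the files give no reason. If their reads were counted, this allows up to 0.0987 CPM at 60 min and 0.165 CPM in DMSO by counting error.

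Other lists of the transcription machinery give the setting, beside 34.1% of all measured genes that rose and 33.8% that fell. TFIIH opens the promoter and phosphorylates the polymerase. Of 11 TFIIH genes looked for, 4 matched no ID (Xpd, Tfb2, Tfb5 and Cdk7). Of the 7 measured, 5 fell and none rose, with a median log2 fold at 60 min of -0.61. Of 11 Integrator genes 2 rose and 3 fell (median 0.05), and IntS6 was higher at 1.53 (1.38 to 1.67). Of 5 genes of capping and C-terminal domain phosphatases 1 fell, Cbp20 of the cap-binding complex at -0.996 (median of the list -0.078). Of the TBP-related factors and testis TAFs, Trf and mia were measured apart from Taf12L, and neither passed the test (log2 folds -0.15 and -0.18). Cbp20, Trf and mia are named after their values were seen.

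The other polymerases gave lower values than Pol II at the large subunits. Of 7 Pol I subunit genes 6 fell (median -1.07), with Polr1H at -1.60 (-1.83 to -1.38), Polr1D at -1.47, Polr1C at -1.13 and Polr1F at -1.07. Of 9 measured Pol III subunit genes 8 fell (median -0.84), with Polr3G at -1.51 (-1.70 to -1.33). Of all measured genes 33.8% fell, and of those in the shortest and second length classes 71.2% and 44.2%. Against the 1.35 of Polr2A, the largest subunits Polr1A and Polr3A had log2 folds of -0.14 (-0.21 to -0.06) and -0.72 (-0.87 to -0.57). With the length relation removed they had -1.23 and -1.65, against -0.039 for Polr2A. These 2 genes were picked after their values were seen, and the difference between genes was not tested.

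Of the histone acetylation complexes SAGA and ATAC, listed together here, SAGA shares TAFs with TFIID. Of 21 measured genes 3 rose and 14 fell (median -0.71), where 34.1% of all measured genes rose and 33.8% fell. Spt20 and Nipped-A, both long genes, were higher at 2.13 (1.85 to 2.43) and 1.42 (1.35 to 1.5), and Saf6 and Spt7, subunits with a histone fold, were lower at -1.99 (-2.25 to -1.73) and -1.60 (-1.89 to -1.31). With the length relation removed Saf6 had -2.19 and Spt7 -1.16, while Spt20 had 0.54 and Nipped-A -0.51.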

How the data were processed

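Per the submitters' processing notes, Bowtie, HTSeq and the genome build dm3 were used, and the authors deposited raw read counts per FlyBase gene, in 1 file per library. The sources used here do not give versions, strand setting or annotation release. Entries that name no gene were left out of library sizes; reads in no gene or in several were 16.1 to 17.6% of aligned reads.

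Of 14869 IDs, 13524 were paired with a symbol by a gene name table and 9 by RefSeq synonyms. Exon lengths came from a later annotation, Ensembl BDGP6, so no coordinates are printed. Counts were scaled by TMM (edgeR 4.0.16, R 4.3.3). Slopes over minutes were fitted by edgeR's quasi-likelihood test (2 residual degrees of freedom). The fit was tried on simulated counts with straight slopes and no length relation, which cannot show how the p-values behave in these data. The SE of a slope is its size over the root of F. Pairs of libraries were compared by the Clopper-Pearson interval of their counts, which covers counting error only, as do floors of 3 counts for a 0. The length relation was a loess curve (span 0.5) of log2 fold on log2 exon length, removed without its median. DESeq2 1.42.0 was an alternative.

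The genes and lists were chosen with earlier results of these data known. Genes named were the kinase module, Tbp, the 2 largest Pol II subunits (Polr2A alone was measured), the 10 highest and 10 lowest folds at 60 min, all past the 2-fold rule and the 5 highest and lowest levels. Other members are given so that all are accounted for. In other lists at most 4 genes past the rule were named.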

Additional observations from a re-analysis of the deposited data

How the results depend on the processing

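No paired analysis was possible because each condition has 1 library. Of the 63 genes, 12 rose and 39 fell in the slope test (34.1% and 33.8% of all measured genes). With the exon length relation removed 5 rose and 25 fell (22.4% and 33.9% of all genes with a length). Leaving out each library in turn gave 2 to 11 that rose and 10 to 40 that fell, the low ends without the 60 min library; each such fit has 1 residual degree of freedom. The other settings (DESeq2 size factors, total counts, TMM without the 50 most abundant and heat shock genes, a mean count of 100 or no filter, the DESeq2 Wald test, library order for minutes) gave 9 to 12 and 31 to 39.

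At 60 min 6 genes were higher and 13 lower (19.7% and 12.6% of all measured genes). There were 0 and 2 with the exon length relation removed (8.01% and 5.89% of all genes with a length). With the 15 min library as the reference there were 1 and 1 (13% and 2.9% of all measured genes). Canonical transcript length in place of exon length gave 0 and 3, and a 3-fold threshold 0 and 0. For these last settings no share of all genes is given here. At 1.5-fold 32 were lower at 60 min (27.4% of all measured genes) and 3 at 30 min (5.10%). The median log2 fold at 15, 30 and 60 min and from 30 to 60 min was -0.044, -0.062, -0.19 and -0.12 with the length relation removed. At 60 min it was -0.21 with canonical length and -0.37 over the 15 min library, and at 15 min -0.034 with total counts. The canonical length and the 15 min reference were chosen after seeing the data.

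Removing the length relation changed the sign of the 60 min log2 fold in 19 of the 63 genes and of the slope in 17. Among genes past the 2-fold rule it reversed the fold of MED26 (-0.050), Taf1 (-0.34), Polr2A (-0.039) and skd (-0.42). Among the genes named by the rule it reversed the slopes of Polr2J (0.084), CycC (0.014), Taf12L (0.45), kto (-0.67), MED26 (-0.046), Taf1 (-0.35), Polr2A (-0.055) and skd (-0.39). The cause of the relation was not tested. Depth limits Taf12L and Cdk8 most.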
